A study of Homo sapiens with 6 samples.

Results

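The 10 genes described here belong to the set that the transcription factor DUX4 is known to switch on in the early embryo: FRG2, FRG2B, RFPL4A, RFPL4B, RFPL2, ZSCAN4, TRIM43, LEUTX, KHDC1L and KDM4E. They were followed through 60671 gene rows of RNA sequencing counts from 3 human lung cancer lines treated with the diterpene AL-X. They were picked by name because 2 of them, FRG2B and RFPL4A, were absent or nearly absent from control libraries and present after AL-X in these same counts, so their levels are given as a description and were not tested. A549, HCC827 and H1975 are established lines of non-small cell lung cancer with the genotype label WT, and each was kept for 48 h with 10 µg/mL AL-X (9α,11α-dihydroxy-kaurenoic acid) or with DMSO, its solvent. Each line gave 1 AL-X and 1 DMSO library, so within a line no spread between cultures could be measured. Across lines, the 3 lines stood as replicates of each treatment.

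DUX4 is a double homeobox transcription factor encoded in a macrosatellite repeat. It is active for a short time in the cleavage-stage embryo, where it turns on a set of genes and repeats, and it is kept silent by repressive chromatin in most adult tissues. Failure of that silencing in skeletal muscle underlies facioscapulohumeral muscular dystrophy (FSHD), and many of the genes below were named or studied through that disease. Several are members of recently duplicated families, and reads from near-identical copies can be assigned to the wrong copy.

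The 6 libraries held between 98139178 and 126840915 counts. A floor of 3 counts, the number that a count of 0 still allows, lay between 0.0237 and 0.0306 counts per 1e6 library counts (CPM), and it covers counting error only. Levels below are counts as deposited, or CPM scaled by the TMM method (trimmed mean of M values). Relative to library totals, TMM moved all AL-X over DMSO folds, and the median of all genes was 0.96 lower in A549, 0.40 lower in H1975 and 0.13 higher in HCC827 on the log2 scale when library totals were used. All 6 epithelial markers examined (EPCAM, KRT7, KRT8, KRT18, KRT19 and CDH1) were detected in every library, with summed counts of 441855, 327306 and 731495 with AL-X and 648400, 497342 and 515612 with DMSO in A549, HCC827 and H1975. Of 8 markers of other cell types, the leukocyte genes PTPRC and CD3E were at 0 in all 6 libraries, and CD68, PECAM1, CDH5, COL1A1, DCN and ALB had reads in some or all. The 8 summed to 1273, 47221 and 6227 counts with AL-X and 2424, 12743 and 12279 with DMSO in A549, HCC827 and H1975. CD68, a lysosomal gene used as a macrophage marker, had 1087, 46355 and 5325 counts with AL-X in these lines, against 1592, 10274 and 10144 with DMSO. The part of these markers in the members' levels was not tested. In bulk RNA, fewer cells that express a gene and less RNA per cell cannot be told apart.

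Promoter sequences were taken from RefSeq on GRCh38.p14, from 250 bases before to 50 bases after each annotated start. 8 of the 10 genes matched, LEUTX and RFPL2 with 2 starts each. The FRG2 and RFPL4A promoters are shown because these families held the highest AL-X levels, each with a close copy, and LEUTX is shown because it carries the same kind of motif but had no counts. Capitals mark matches to TATAAA or to TAANNNAATCA, a loose form of the DUX4 site with N for any base, searched on both strands with overlaps allowed. The windows are chr4:190027207-190027506 (minus strand) for FRG2, chr3:75664078-75664377 (plus strand) for FRG2C, chr19:55758847-55759146 (plus strand) for RFPL4A, chr19:55768868-55769167 (plus strand) for RFPL4AL1 and chr19:39778604-39778903 (plus strand) for LEUTX.
FRG2: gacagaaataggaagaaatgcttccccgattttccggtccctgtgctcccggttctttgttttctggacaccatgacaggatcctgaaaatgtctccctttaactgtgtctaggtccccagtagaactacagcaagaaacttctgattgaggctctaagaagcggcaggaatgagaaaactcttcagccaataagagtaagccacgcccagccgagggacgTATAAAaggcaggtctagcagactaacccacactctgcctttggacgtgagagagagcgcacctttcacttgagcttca
FRG2C: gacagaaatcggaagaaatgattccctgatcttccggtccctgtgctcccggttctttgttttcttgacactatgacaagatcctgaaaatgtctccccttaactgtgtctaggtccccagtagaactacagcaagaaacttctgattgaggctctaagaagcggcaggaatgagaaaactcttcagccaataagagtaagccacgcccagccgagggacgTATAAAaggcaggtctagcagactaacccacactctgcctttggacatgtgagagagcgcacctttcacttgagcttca
RFPL4A: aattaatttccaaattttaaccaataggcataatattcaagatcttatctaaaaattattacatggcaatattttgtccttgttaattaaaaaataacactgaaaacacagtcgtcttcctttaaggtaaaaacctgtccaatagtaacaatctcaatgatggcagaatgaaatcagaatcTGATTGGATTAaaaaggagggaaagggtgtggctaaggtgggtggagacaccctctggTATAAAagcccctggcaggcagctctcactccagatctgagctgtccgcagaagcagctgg
RFPL4AL1: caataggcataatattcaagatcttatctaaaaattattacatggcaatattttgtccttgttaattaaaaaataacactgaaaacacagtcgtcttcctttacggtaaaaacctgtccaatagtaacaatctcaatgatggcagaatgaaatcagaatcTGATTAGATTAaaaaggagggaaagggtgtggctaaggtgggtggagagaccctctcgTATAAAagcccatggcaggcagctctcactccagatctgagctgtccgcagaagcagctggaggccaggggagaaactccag
LEUTX: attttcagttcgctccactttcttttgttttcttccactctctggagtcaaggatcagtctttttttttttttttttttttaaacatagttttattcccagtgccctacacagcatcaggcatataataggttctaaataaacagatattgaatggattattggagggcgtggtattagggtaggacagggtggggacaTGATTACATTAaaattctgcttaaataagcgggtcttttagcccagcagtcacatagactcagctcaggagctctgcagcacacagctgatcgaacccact

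The DUX4-type match in RFPL4A, tgattggatta, starts 69 bases before the annotated start, and that of its copy RFPL4AL1, tgattagatta, 90 bases before it. In LEUTX, tgattacatta starts 51 bases before the start. All 3 read on the minus strand. Of all 35116 promoters, 0.888% held such a match, and none of the other members' windows did. TATAAA starts 29 bases before the start of FRG2 and FRG2C, 28 before FRG2B, 34 before RFPL4B, 166 before ZSCAN4, 11 before RFPL4A and 32 before RFPL4AL1. Of all promoters, 11.5% held TATAAA on either strand. The FRG2 and FRG2B windows are the same sequence shifted by 1 base, with 299 identical bases in 301 aligned columns, so that of FRG2B (chr10:133626746-133627045, minus strand) is not repeated. FRG2C differed from FRG2 at 10 of 300 positions. Neither FRG2 nor FRG2B held the heat shock element GAANNTTCNNGAA (0.49% of all promoters), the AP-1 site TGANTCA (7.71%) or the cyclic AMP response element TGACGTCA (1.85%). None of these motifs was found in KHDC1L or in either RFPL2 window. A match describes these letters and is not evidence of binding.

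FRG2 and FRG2B, 2 copies of FSHD region gene 2, whose function is not known, had no reads in any DMSO library and reads in every AL-X library. FRG2B (ENSG00000225899, chromosome 10, 133623895 to 133626795, minus strand) had 2754 counts in A549, 42 in HCC827 and 83 in H1975 with AL-X, against 0 in all 3 lines with DMSO. FRG2 (ENSG00000205097, chromosome 4, 190024351 to 190027257, minus strand) had 1177, 32 and 95 counts with AL-X in A549, HCC827 and H1975, against 0 in all 3 with DMSO. The treatments did not overlap for either gene, and A549 with AL-X stood far above the other AL-X libraries. Set against the floor in the DMSO library of the same line, FRG2B was at least 1661-fold higher in A549, 16.5-fold in HCC827 and 34.3-fold in H1975. The bounds for FRG2 were at least 710-fold in A549, 12.6-fold in HCC827 and 39.2-fold in H1975. In A549 the TMM factor of the AL-X library was 0.557 and that of the DMSO library 1.12. With library totals instead, the A549 bounds were at least 834-fold for FRG2B and 356-fold for FRG2.

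The transcripts of FRG2 and FRG2B are 99.5% identical, with 5 mismatches in 2100 aligned columns, and 75.8% of the 100-base windows of FRG2 occur unchanged in another gene, all in FRG2B. The sum of the pair is therefore less affected by how reads were shared. It was 3931 counts in A549, 74 in HCC827 and 178 in H1975 with AL-X, against 0 in every DMSO library. On the TMM scale the level of the pair with AL-X was 58.4 CPM in A549, 0.593 in HCC827 and 1.76 in H1975. A549 thus stood 98.4 times above HCC827 and 33.2 times above H1975 on that scale. These ratios depend on the scaling and were smaller with library totals. There FRG2B was at 22.7, 0.428 and 0.740 CPM in A549, HCC827 and H1975 with AL-X, and FRG2 at 9.68, 0.326 and 0.847.

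**Figure D1:**
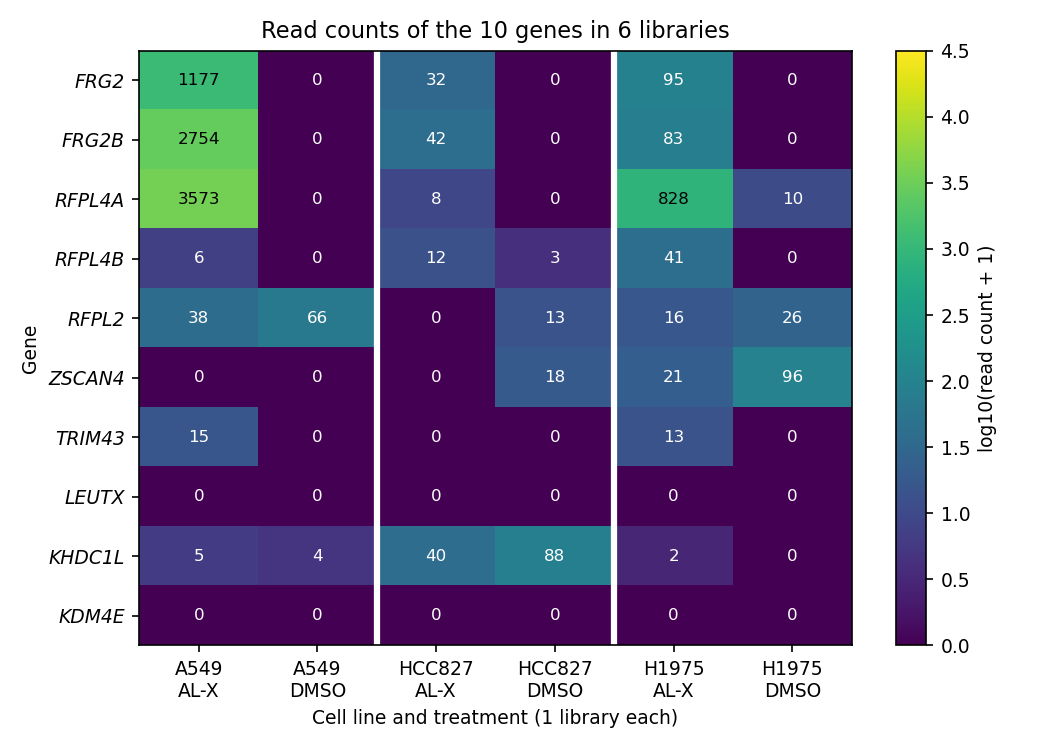
Heat map of the counts of each of the 10 genes in the 6 libraries, AL-X left of DMSO for each line. Color follows the count on a log scale, and the count is printed in each cell. FRG2 and FRG2B have between 32 and 2754 counts in the AL-X libraries and 0 in the DMSO libraries, while LEUTX and KDM4E are at 0 throughout.

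Other copies of FRG2 can be told from it better. FRG2C (ENSG00000172969, chromosome 3, 75664330 to 75667220, plus strand) shares 94.1% of aligned transcript columns with FRG2, gaps counted, and 0.193% of its 100-base windows occur in another gene. It had 1640 counts in A549, 0 in HCC827 and 71 in H1975 with AL-X, against 0 in all 3 lines with DMSO, which is at least 989-fold higher in A549 and 29.3-fold in H1975. The pseudogene FRG2EP on chromosome 20 had 798, 0 and 17 counts with AL-X in A549, HCC827 and H1975, and 0 in every DMSO library. In A549 and H1975 reads were therefore assigned to copies on several chromosomes, and in HCC827 to FRG2 and FRG2B.

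Among all counts of the FRG2 family, FRG2B took 43.1% of 6387 in A549 with AL-X, 56.8% of 74 in HCC827 and 30.1% of 276 in H1975. The exact 95% binomial intervals were 41.9% to 44.3% in A549 and 24.7% to 35.9% in H1975. FRG2 took 18.4% in A549 (17.5% to 19.4%), 43.2% in HCC827 (31.8% to 55.3%) and 34.4% in H1975 (28.8% to 40.4%). FRG2C took 25.7% in A549 and 25.7% in H1975, and 0 of 74 in HCC827, for which the interval reaches 4.86%. These intervals cover counting error alone. They include neither the spread between cultures, with 1 library per line, nor the unknown way in which reads were assigned within the near-identical pair of FRG2 and FRG2B, so no difference in make-up between lines is read from them.

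**Figure D2:**
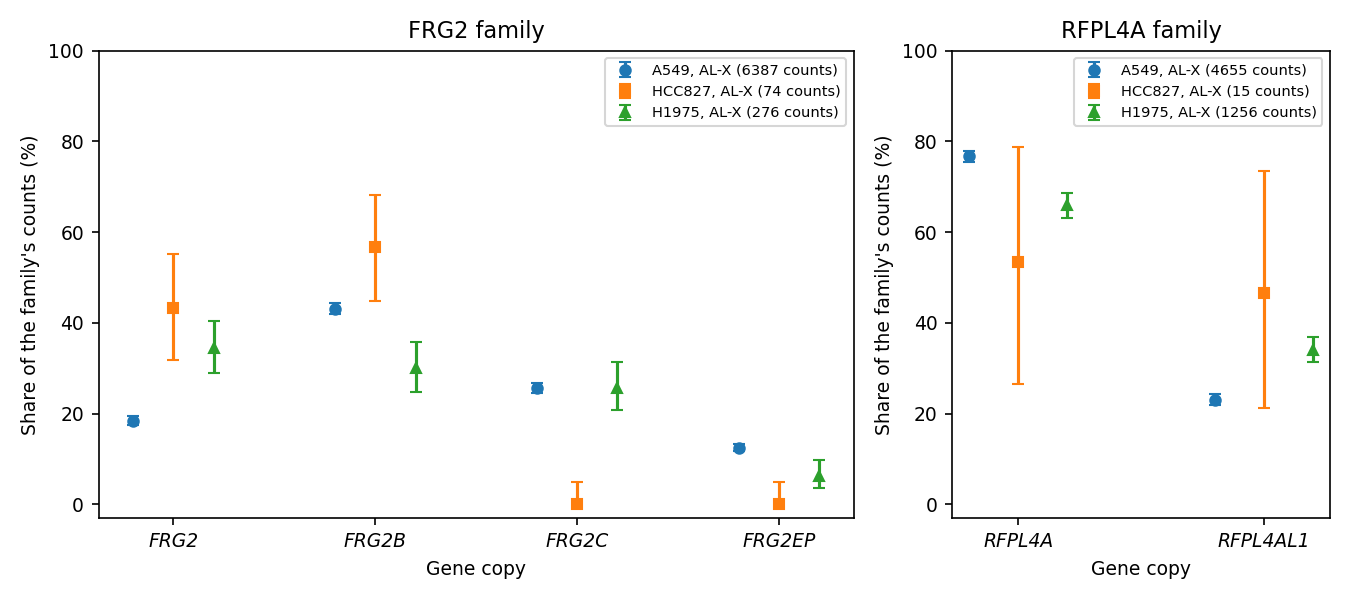
Shares of the counts of the FRG2 family (left) and of the RFPL4A family (right) in the AL-X libraries of A549, HCC827 and H1975, in percent of the family's counts with exact 95% binomial intervals. FRG2C holds 25.7% of the family in A549 and in H1975 and none of 74 counts in HCC827, and RFPL4A holds 53.3% or more of its family in each line.

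The RFPL genes encode Ret finger protein-like proteins, and RFPL4A is known from mouse as an oocyte protein. RFPL4A (ENSG00000223638, chromosome 19, 55759014 to 55763175, plus strand) had 3573 counts in A549, 8 in HCC827 and 828 in H1975 with AL-X, against 0 in A549, 0 in HCC827 and 10 in H1975 with DMSO. This was at least 2154-fold higher in A549 (1082-fold with library totals), at least 3.15-fold in HCC827, and 103-fold in H1975 with an exact 95% counting interval of 55.5 to 215. HCC827 with AL-X lay below H1975 with DMSO, so the treatments overlapped across lines. H1975 was also the one line in which RFPL4A had reads with DMSO.

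RFPL4AL1 (ENSG00000229292) lies 5966 bases downstream of RFPL4A and matches it at all but 5 of the positions where both are aligned, and 48.4% of RFPL4A windows occur in it. It had 1070, 7 and 428 counts with AL-X in A549, HCC827 and H1975, against 0, 0 and 6 with DMSO. RFPL4A took 76.8% of the family in A549 with AL-X (75.5% to 78.0%), 53.3% in HCC827 (26.6% to 78.7%) and 65.9% in H1975 (63.2% to 68.5%). Summed, the pair had 4643, 15 and 1256 counts with AL-X and 0, 0 and 16 with DMSO. The pair was at least 2799-fold higher in A549, at least 5.91-fold in HCC827 and 97.2-fold in H1975 (59.6 to 171). The order of the lines differed from that of the FRG2 pair in its spacing on the TMM scale. With AL-X the RFPL4A pair was 5.55 times higher in A549 than in H1975 and 103 times higher in H1975 than in HCC827. The FRG2 pair was 2.97 times higher in H1975 than in HCC827. These ratios depend on the scaling. RFPL4A itself was at 29.4, 0.0815 and 7.38 CPM in A549, HCC827 and H1975 with library totals. With TMM it was at 53.0, 0.0641 and 8.18.

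RFPL4B (ENSG00000251258, chromosome 6, 112347330 to 112351296, plus strand) is a more distant relative, identical to RFPL4A at 69.8% of the transcript positions where both are aligned. It had 6 counts in A549, 12 in HCC827 and 41 in H1975 with AL-X, against 0, 3 and 0 with DMSO. As assigned, these counts did not overlap between treatments, with 6 in A549 with AL-X near the 3 in HCC827 with DMSO. H1975 rather than A549 was highest. The fold was at least 3.62 in A549, 4.72 in HCC827 (1.28 to 26.1) and at least 16.9 in H1975. An annotated neighbour, ENSG00000281613, overlaps it and had 0, 0 and 3 counts with AL-X and 4, 0 and 15 with DMSO, so assignment between them is uncertain.

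RFPL2 (ENSG00000128253, chromosome 22, 32190435 to 32203477, minus strand) did not follow them. It had 38 counts in A549, 0 in HCC827 and 16 in H1975 with AL-X, against 66, 13 and 26 with DMSO. After scaling, the fold was 1.04 in A549 (0.680 to 1.58) and 0.762 in H1975 (0.382 to 1.48), both intervals spanning no difference, and at least 3.67-fold lower in HCC827. With library totals the A549 log2 fold was -0.90, against 0.06 with TMM.

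ZSCAN4, a SCAN and zinc finger protein known from mouse embryonic stem cells for its part in telomere maintenance, was lower with AL-X in the lines that had it. ZSCAN4 (ENSG00000180532, chromosome 19, 57668935 to 57679152, plus strand) had 0 counts in A549, 0 in HCC827 and 21 in H1975 with AL-X, against 0, 18 and 96 with DMSO. In HCC827 it was at least 5.08-fold lower with AL-X. In H1975 the fold was 0.271 (0.160 to 0.438), that is 3.69 times lower. None of its 100-base windows occurs unchanged in an annotated transcript of another gene. Sharing of shorter or mismatched reads was not examined. In H1975, ZSCAN4 and RFPL4A were thus both present in control cells and moved in opposite directions in the same pair of libraries.

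TRIM43 (ENSG00000144015, chromosome 2, 95592018 to 95599778, plus strand), of the tripartite motif family of ubiquitin ligases, appeared at low counts. It had 15 counts in A549, 0 in HCC827 and 13 in H1975 with AL-X, against 0 in all 3 lines with DMSO. The bounds were at least 9.04-fold in A549 and 5.37-fold in H1975. Its copy TRIM43B, 98.5% identical, had 15, 0 and 21 counts with AL-X in A549, HCC827 and H1975, and 0 in every DMSO library. Both copies were thus detected in the same 2 libraries, in which FRG2C was also detected.

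KHDC1L (ENSG00000256980, chromosome 6, 73223544 to 73225770, minus strand) belongs to a KH domain-related family of putative RNA-binding proteins. It had 5 counts in A549, 40 in HCC827 and 2 in H1975 with AL-X, against 4, 88 and 0 with DMSO. In HCC827 the fold was 0.537 (0.360 to 0.789), and in A549 it was 2.26 with an interval of 0.487 to 11.4. HCC827 was the highest line under either treatment. The gene overlaps ENSG00000243501 on the same strand, which had 8, 1 and 0 counts with AL-X and 4, 12 and 1 with DMSO.

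LEUTX, a paired-like homeobox factor of embryonic genome activation (ENSG00000213921, chromosome 19, 39776595 to 39786167, plus strand), had 0 counts in all 6 libraries. KDM4E, of the KDM4 family of histone demethylases (ENSG00000235268, chromosome 11, 95025258 to 95027596, plus strand), also had 0 counts in all 6. For both, levels under the floor of 3 counts were not detectable. LEUTX and RFPL4A, which share the DUX4-type motif shown above, thus differed in whether any read was found.

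Counted together, 5 of the 10 genes reached 10 counts in A549 with AL-X, 4 in HCC827 and 7 in H1975, against 1, 3 and 3 with DMSO. The genes with at least 10 counts that are ranked per length below went the other way. They numbered 17599, 20153 and 18255 with AL-X in A549, HCC827 and H1975, against 20222, 20881 and 20387 with DMSO. The rule for a call was 2-fold or more with a prior count of 2 and at least 10 counts in the higher library. In A549, 5 members had 10 counts in either library. Of these, 4 were higher with AL-X (FRG2, FRG2B, RFPL4A and TRIM43) and none lower, beside 27.4% and 40.4% of all genes with 10 counts. In HCC827, 3 of 6 such members were higher (FRG2, FRG2B and RFPL4B) and 2 lower (RFPL2 and ZSCAN4), beside 17.6% and 24.6%. In H1975, 5 of 7 such members were higher (FRG2, FRG2B, RFPL4A, RFPL4B and TRIM43) and 1 lower (ZSCAN4), beside 15.3% and 32.0%. The members were chosen on this contrast, and nothing is read from these shares. Of the 10, 5 passed the filter on low counts, namely FRG2, FRG2B, RFPL4A, RFPL2 and ZSCAN4.

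Of the genes at 0 with DMSO, 4 of 8 members reached 10 counts with AL-X in A549, 2 of 6 in HCC827 and 4 of 7 in H1975, beside 1.93%, 1.93% and 0.904% of all genes at 0 with DMSO in those lines. Conversely, in HCC827 RFPL2 and ZSCAN4 were at 0 with AL-X after 13 and 18 counts with DMSO, while no member was lost in this way in A549 or H1975. Of all genes at 0 with AL-X, 6.39% in A549, 3.14% in HCC827 and 4.2% in H1975 had 10 or more with DMSO. Under 10 counts in every DMSO library and at 10 or more in every AL-X library were FRG2 and FRG2B, as were 0.178% of all genes that were under 10 counts in every DMSO library. Both were at 0 in every DMSO library, and 0.0256% of the genes at 0 there reached 10 counts in every AL-X library. The members were picked for going from no or few reads to detected in these counts, and FRG2 and FRG2B can share reads. Nothing is therefore read from these shares either.

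The levels reached differed widely between lines when set per length of exon. With AL-X in A549, RFPL4A stood at 51.2 scaled CPM per kb, FRG2B at 19.5 and FRG2 at 8.31, at the 90.8, 81.1 and 69.8 percentiles of the genes with at least 10 counts in that library. In H1975 with AL-X, RFPL4A reached 7.91 (percentile 71.0), while FRG2 and FRG2B were at 0.446 and 0.391 (25.6 and 23.9). In HCC827 with AL-X, FRG2B and FRG2 were at 0.160 and 0.122 (15.2 and 12.0), and KHDC1L, at 0.336, was above them. With DMSO the highest per-length levels of members were 0.199 for RFPL2 in A549, 0.626 for KHDC1L in HCC827 and 0.341 for ZSCAN4 in H1975. The member with the highest level per length was therefore a different gene in each line with DMSO and RFPL4A in both A549 and H1975 with AL-X.

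FRG2 lies near the end of chromosome 4 and FRG2B near the end of chromosome 10, each beside a repeat array that holds DUX4 copies. Within 200 kb of FRG2 there were 25 other annotated genes and within 200 kb of FRG2B 27, and in no line did any of them have 0 counts with DMSO and 10 or more with AL-X. The neighbours at 0 with DMSO, which could have done so, numbered 7, 17 and 19 near FRG2 and 9, 15 and 20 near FRG2B in A549, HCC827 and H1975. The shares of all genes given above were 1.93%, 1.93% and 0.904%, and nothing is read from a count of 0 among so few neighbours. In the other direction, 2 of 19 neighbours of FRG2 at 0 with AL-X in A549 had 10 or more counts with DMSO, and none in HCC827 or H1975. Near FRG2B they were 4 of 19 in A549, 1 of 22 in HCC827 and 2 of 22 in H1975, beside 6.39%, 3.14% and 4.2% of all genes.

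The nearest protein-coding genes were also followed. FRG1 (FSHD region gene 1), 61.1 kb from FRG2 and on the opposite strand, had 5440 counts in A549, 2691 in HCC827 and 3039 in H1975 with AL-X, against 1683, 3869 and 1694 with DMSO. Its log2 folds were 2.55 in A549, -0.28 in HCC827 and 1.15 in H1975, and the fold was 1.14 across lines (SE 0.63), which did not pass edgeR's quasi-likelihood test (adjusted p = 0.396). SYCE1, a synaptonemal complex gene 54.1 kb from FRG2B, was at 0 in all 6 libraries.

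DUX4 itself, annotated 146.5 kb from FRG2, had 0 counts in every AL-X library, and with DMSO it had 4 counts in A549 and 0 in the others. Because DUX4 copies are near-identical, all 42 annotated DUX4 and DUX4-like genes were summed. The sum was 7 counts in A549, 11 in HCC827 and 0 in H1975 with AL-X, against 52, 20 and 9 with DMSO. After scaling, the fold was 0.243 in A549 (0.0933 to 0.538) and 0.650 in HCC827, where the interval of 0.281 to 1.42 spans no difference, and the sum was at least 2.42-fold lower in H1975. In the libraries where FRG2 and FRG2B appeared, reads assigned to DUX4 copies were thus no more frequent than with DMSO. It is not known whether reads that match several copies were counted. If they were left out, the sum misses them, so it gives no full level of DUX4 RNA. These counts were taken at 48 h and give no value for an earlier time.

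**Figure D3:**
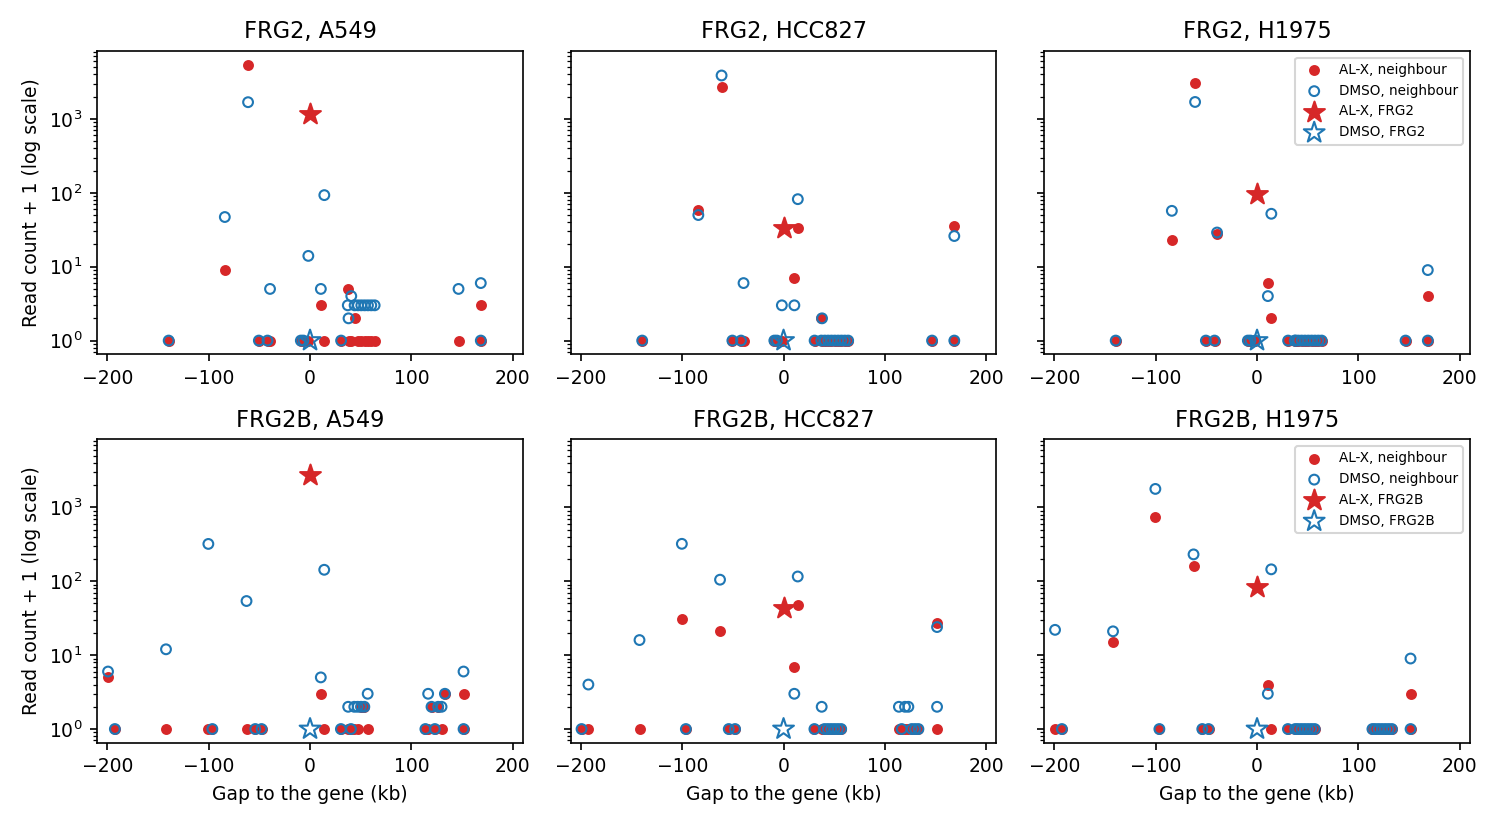
Counts of annotated genes within 200 kb of FRG2 and of FRG2B, plotted by distance from the gene in kb, on a log axis with 0 shown. The AL-X and DMSO counts of a gene stand at the same distance. FRG2 and FRG2B themselves stand at 0 with DMSO and at 32 or more counts with AL-X, and no neighbour shows this pattern.

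Other genes known as DUX4 targets give the wider programme. A list of 46, all in the table, included families of the preferentially expressed antigen in melanoma type (PRAMEF), methyl-CpG binding-like genes (MBD3L), further TRIM genes, and zinc finger genes. Of these, 17 were at 0 in all 6 libraries and 8 passed the low-count filter. None of the 8 was called by edgeR across lines in either direction at an adjusted p of 0.05, while 2 had an unadjusted p under 0.05. Their median log2 fold was 0.28 and 4 of 8 were above 0, beside -0.27 and 41.7% for all 20344 genes tested. Over all genes, 0.0983% were called higher and 0.157% lower.

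ZNF296, a zinc finger gene, had 19574 counts in A549, 642 in HCC827 and 765 in H1975 with AL-X, against 304, 162 and 207 with DMSO. Its scaled folds were 116 in A549, 4.68 in HCC827 and 4.58 in H1975, higher in 3 of 3 lines, and 3.49 on the log2 scale across lines (SE 0.90, edgeR adjusted p = 0.133). ZNF280A had 1079, 807 and 31 counts with AL-X in A549, HCC827 and H1975, against 263, 280 and 11 with DMSO. Its fold was 7.42, 3.40 and 3.49 in those lines, and 2.16 on the log2 scale across them (SE 0.81, edgeR adjusted p = 0.241). Both had reads with DMSO in all 3 lines, where FRG2 and FRG2B had none. DESeq2, run as an alternative, called both higher, as it did 2.99% of all genes. ALPG, an alkaline phosphatase gene, had a log2 fold of 1.98 (SE 1.26), SLC34A2, a phosphate transporter, -4.67 (SE 2.69), KLF17, a zinc finger factor, -1.39 (SE 2.27) and ZNF217 -0.64 (SE 0.57), none of them called by edgeR.

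Some genes of the list without reads in control cells had low counts with AL-X. Of the listed genes at 0 with DMSO, 9 of 40 had a read with AL-X in A549, 2 of 37 in HCC827 and 15 of 36 in H1975, that is 22.5%, 5.41% and 41.7%. For all genes at 0 with DMSO the shares were 8.31%, 7.96% and 5.99%. The share in HCC827 was thus no larger than that of all genes. At 10 counts or more the numbers were 5, 1 and 6 genes, or 12.5%, 2.70% and 16.7% of those at 0, beside 1.93%, 1.93% and 0.904% of all genes. Some of the listed genes, such as those of the MBD3L, PRAMEF and TRIM49D families, are near-identical copies that can share the same reads. They are not separate observations, and these shares were not tested. In the other direction, 1, 2 and 0 listed genes had reads with DMSO and none with AL-X, beside 15.7%, 11.2% and 13.4% of all genes at 0 with AL-X.

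In H1975 with AL-X, PRAMEF12 had 27 counts, TRIM49D1 26, MBD3L2B 19, TRIM49D2 17, MBD3L2 15 and PRAMEF2 11, against 0 for each with DMSO. These 6 genes and USP17L2 were picked for naming after their counts were seen. TRIM49D1 and TRIM49D2 also had 17 and 13 counts in A549 with AL-X and 0 with DMSO, and neither had a read in HCC827. USP17L2, a deubiquitinase of a repeated family, had 17, 21 and 8 counts with AL-X in A549, HCC827 and H1975, and 0 in every DMSO library. PRAMEF, MBD3L2, TRIM49D and USP17L genes exist in near-identical copies, so the copy to which a read belongs is uncertain. The MBD3L2 and PRAMEF genes with 10 or more counts had none in A549, the line in which FRG2, FRG2B and RFPL4A were highest.

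**Figure D4:**
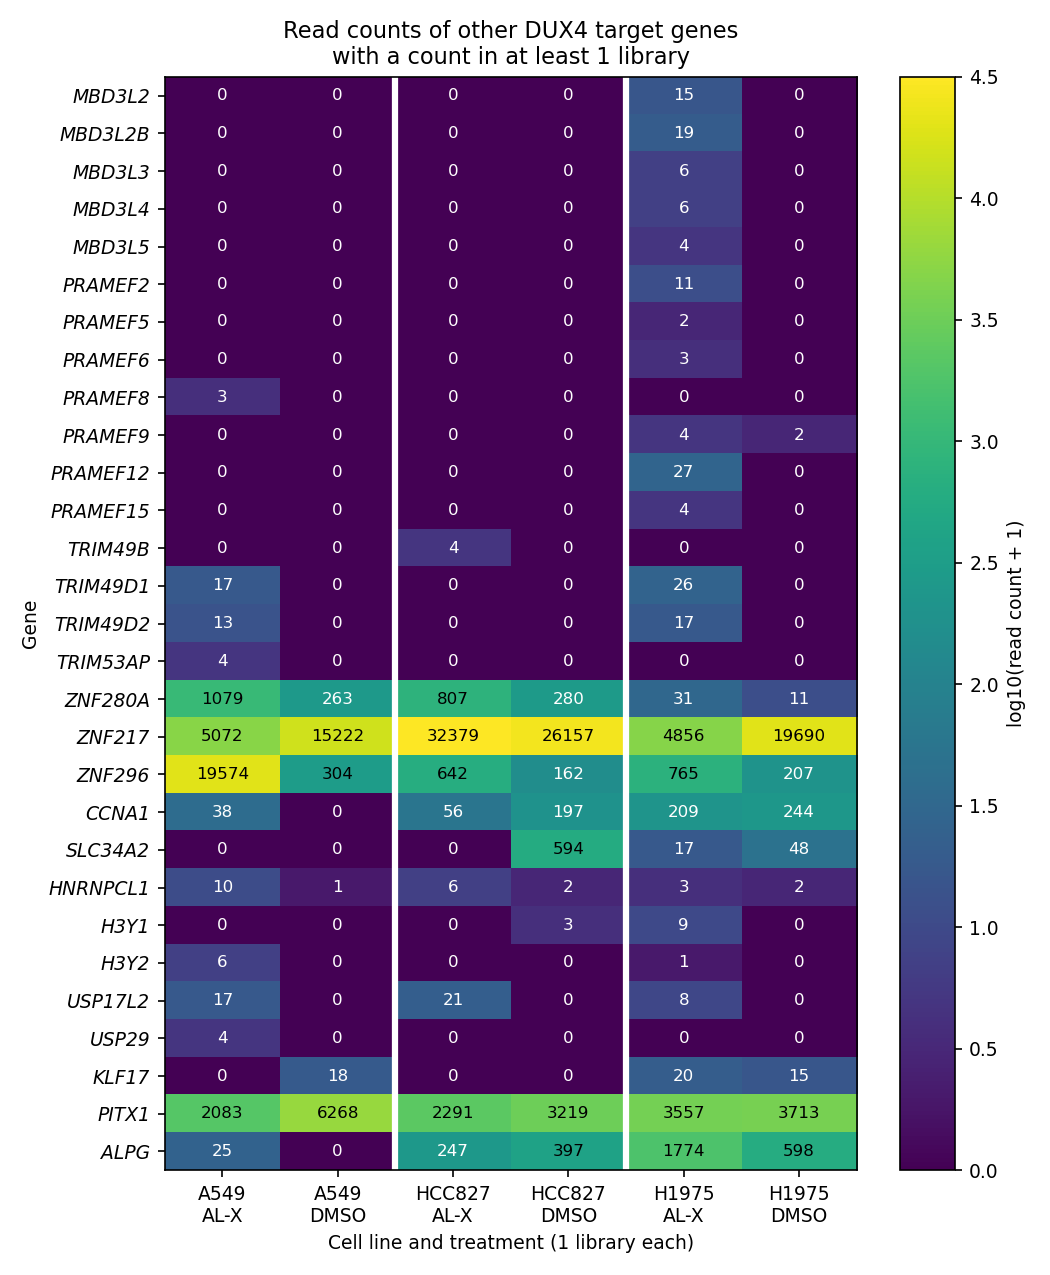
Heat map of the counts of the other DUX4 target genes that had reads in at least 1 library, AL-X left of DMSO for each line. Color gives the log10 of the count plus 1, and the count is printed in each cell. ZNF296 and ZNF280A have reads in all 6 libraries, while MBD3L2, MBD3L2B, PRAMEF2 and PRAMEF12 have reads in the AL-X library of H1975.

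Paralogs and homeobox partners were described in the same way. Of 26 paralogs of the members, 7 passed the filter and none was called by edgeR or DESeq2 in either direction, with no unadjusted edgeR p under 0.05. KHDC1, next to KHDC1L, had 101, 406 and 92 counts with AL-X in A549, HCC827 and H1975, against 411, 673 and 424 with DMSO (log2 fold -1.18, SE 0.86). KDM4B had a log2 fold of -1.39 (SE 0.65) and KDM4A of 0.31 (SE 0.46), and RFPL3S, an antisense gene, of 0.87 (SE 1.25). Of 14 embryonic homeobox and DUX genes in the table, 7 were at 0 in all libraries and 3 passed the filter. DUXAP10, a DUX pseudogene, had 669, 7790 and 1108 counts with AL-X in A549, HCC827 and H1975, against 8368, 11484 and 4270 with DMSO, a log2 fold of -1.58 (SE 0.58, edgeR adjusted p = 0.237). POU5F1, the pluripotency factor OCT4, had 25, 0 and 0 counts with AL-X and 298, 18 and 0 with DMSO (log2 fold -3.58, SE 1.67, edgeR adjusted p = 0.328). No gene of the homeobox list was called by edgeR or DESeq2, and 1 had an unadjusted edgeR p under 0.05.

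Of 24 genes known to control silencing of the DUX4 repeat, 22 passed the filter, none was called by edgeR and 3 had an unadjusted p under 0.05. DESeq2 called none higher and 2 lower, ATRX and DNMT3B, beside 6.93% of all genes called lower by it. Their median log2 fold was 0.21 and 14 of 22 were above 0. ATRX, a chromatin remodeler, had 3776 counts in A549, 18534 in HCC827 and 4199 in H1975 with AL-X, against 27721, 42139 and 17247 with DMSO. Its log2 fold was -1.57 (SE 0.51, edgeR adjusted p = 0.200), lower in 3 of 3 lines. DNMT3B, a DNA methyltransferase, had 34, 1597 and 972 counts with AL-X in A549, HCC827 and H1975, against 2548, 2608 and 4477 with DMSO, a log2 fold of -2.40 (SE 0.93, edgeR adjusted p = 0.257), lower in 3 of 3. In the other direction, MTA2, a subunit of the NuRD deacetylase complex, had a log2 fold of 1.49 (SE 0.61, edgeR adjusted p = 0.279), and TRIM28, a corepressor of zinc finger proteins, one of 1.53 (SE 0.78, edgeR adjusted p = 0.357). A549, the line with the highest FRG2, FRG2B and RFPL4A, also had the lowest DNMT3B count. Its part in those levels was not tested.

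The genes whose pattern was most like that of FRG2B were sought among the 31776 gene rows with at most 3 counts in each DMSO library, ranked by their lowest count over the 3 AL-X libraries. The first was HSPE1-MOB4, a readthrough gene that overlaps the chaperonin gene HSPE1, with 2919, 243 and 164 counts with AL-X in A549, HCC827 and H1975 and 0 in every DMSO library. The microRNA gene MIR222 was at rank 2, with 419, 258 and 71 counts with AL-X and 2, 1 and 2 with DMSO. FRG2B had rank 3, FRG2 rank 4 and STPG3 rank 5 with 189, 19 and 33 counts with AL-X and 0 in every DMSO library. RFPL4B came at rank 40 and TRIM43, which had no read in HCC827, at rank 1075. All 5 leading genes had their highest AL-X count in A549.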

How the data were processed

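Poly(A)-type mRNA libraries of 3 lines were sequenced after AL-X or DMSO. The table the authors deposited holds raw read counts, whole numbers, for each Ensembl gene. Per the submitters' processing notes, bcl2fastq 2.20 and GRCh38 were used, while no aligner, counter, annotation release, strand setting or barcode handling is given in the sources used here. Reads of overlapping, antisense or near-identical genes therefore cannot be told apart. Of 60671 rows, 60401 matched a symbol and 58453 had a position in GENCODE 29 on GRCh38, used for coordinates and exonic length. Transcript identity was computed on GENCODE 29 transcripts.

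The 10 members and the gene lists were chosen with earlier results of these data known, so members were not tested. Named in addition were up to 3 genes with the highest and 3 with the lowest across-line fold per list, nearest coding neighbours, and the 5 genes most like FRG2B. Other genes were tested with edgeR 4.0.16 in R 4.3.3 (quasi-likelihood, TMM, filterByExpr, line as block, Benjamini-Hochberg at 0.05; DESeq2 1.42.0 as alternative). The AL-X and DMSO libraries of a line come from the same cell line, which pairs them. Nothing states separate cultures, so p-values measure the spread between lines. SE was derived from the fold and its F value. Within lines, folds used a prior count of 2, or a bound against a floor of 3 counts, and exact binomial 95% intervals that cover counting error alone, because reads may not be independent molecules. The edgeR procedure was tested on simulated counts without differences between lines, a simpler setting than these data.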

Additional observations from a re-analysis of the deposited data

Results flagged for a closer look

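KDM4D, a paralog of KDM4E, moved in opposite directions between lines, and the difference was not tested. With a prior count of 2, the log2 folds of AL-X over DMSO were 0.87 in A549, 1.68 in HCC827 and -1.88 in H1975, from 102, 1729 and 44 counts with AL-X and 100, 638 and 207 with DMSO. With library totals the A549 fold was 0.927, so its direction in A549 turned with the scaling.

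CCNA1, a cyclin of the germline and a known DUX4 target, also differed between lines, and this was not tested. With a prior count of 2, the log2 folds were 4.79 in A549, -1.54 in HCC827 and 0.08 in H1975. The value for A549, where DMSO had no read, depends on the prior count, and the bound against the floor was at least 22.9-fold higher (11.5-fold with library totals). It had 38, 56 and 209 counts with AL-X in those lines, against 0, 197 and 244 with DMSO. In H1975 the fold was 1.06 with TMM and 0.799 with library totals.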

How the results depend on the processing

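Across lines, edgeR called 20 genes higher and 32 lower. With library totals, without the low-count filter, and with no replicate block (the line pairing left out) the counts were 0 and 0, with DESeq2 608 and 1409, and leaving out each line gave 28 to 127 higher and 57 to 78 lower (65 and 78 without A549, 127 and 57 without HCC827, 28 and 78 without H1975). Of the other DUX4 targets none was called by edgeR, DESeq2 called 2 higher (ZNF296 and ZNF280A), and leaving out each line gave 0 to 1, with ZNF296 called without H1975. The cause of these shifts was not tested. FRG2 and FRG2B were the members that reached the minimum in every AL-X library and stayed under it in every DMSO library, at a minimum of 10 or 20 counts. A minimum of 5 added RFPL4B, as did leaving out A549, and leaving out HCC827 added TRIM43, so that leaving out each line gave 2 to 3. With a minimum of 20 counts, members lower in HCC827 numbered 0 instead of 2, since RFPL2 and ZSCAN4 had 13 and 18. Of 18 member folds within lines, none changed sign as a call. Library totals moved 4 beyond counting error, all in A549: on the log2 scale with a prior count of 2 to 9.14 for FRG2, 10.36 for FRG2B, 10.74 for RFPL4A and -0.90 for RFPL2. A prior count of 0.5 moved folds by up to 2.0 (FRG2 in A549 to 11.69, against 9.69). Fitted folds over a DMSO count of 0 depend on the prior and are no bounds. With DESeq2 size factors no fold moved by more than 0.01. Depth limits RFPL4B, RFPL2, ZSCAN4, TRIM43 and KHDC1L, lower calls included, since each stayed under 100 counts in every library.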

Other observations

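Germline genes that are not known targets of DUX4 were followed for comparison. Of 16 listed, 8 were at 0 in all 6 libraries, among them the spermatid genes PRM1, PRM2 and TNP1 and the oocyte genes BMP15, NLRP5 and ZAR1. Of the 16, 4 passed the low-count filter, none was called by edgeR or DESeq2 in either direction and none had an unadjusted edgeR p under 0.05. Of the germline genes at 0 with DMSO, 11 in A549, 10 in HCC827 and 9 in H1975, none reached 10 counts with AL-X, beside 1.93%, 1.93% and 0.904% of all genes at 0 with DMSO. With so few genes, a count of 0 does not set them apart from all genes. GDF9, an oocyte growth factor, had 660 counts in A549, 123 in HCC827 and 53 in H1975 with AL-X, against 59, 104 and 68 with DMSO, a log2 fold of 1.41 across lines (SE 1.18, edgeR adjusted p = 0.565). SYCP3, a synaptonemal complex gene, had 0, 0 and 5 counts with AL-X and 25, 4 and 1 with DMSO.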
